A study of Drosophila melanogaster with 12 samples.

Results

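Cytosolic ribosomal proteins are the protein parts of the ribosome, the particle that translates mRNA in every cell. RpL genes encode proteins of the large subunit, RpS genes those of the small subunit, and RpLP0, RpLP1 and RpLP2 the stalk that recruits elongation factors. In Drosophila most of these proteins come from a single gene whose loss of 1 copy gives the slow-growing Minute phenotype, while some have a duplicate copy that is used mainly in germ cells. The genes described here are the rows of an RNA-seq count table whose symbol begins with RpL or RpS and a digit, or with RpLP and a digit. They number 92 of 17075 rows, of which 54 belong to the large and 38 to the small subunit. Of these, 84 had a mean of at least 5 CPM, the counts scaled to a common library size, over all libraries. The other 8 are duplicates of a more abundant gene, and no member was left out.

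The RNA came from whole heads of flies 8 to 10 days after eclosion, in a fly model of amyotrophic lateral sclerosis. Human TDP-43 (hTDP-43), an RNA-binding protein that forms aggregates in the disease, was expressed from a UAS transgene under Gal4 drivers. In Repo/TDP43 flies (libraries S05 and S06) the repo driver acts in most glia, and in Elav/TDP43 flies (S11 and S12) the elav driver acts in neurons. TDP43/2U flies (S14 and S15) carried the transgene without any driver, so all 3 genotypes held the transgene, and a driver insertion and the hTDP-43 it turns on cannot be told apart. Stocks had been backcrossed to w1118 (isoCJ1), a Canton-S derivative, for at least 5 generations, and the sex of the flies sequenced is not given in the sources used here. For its lifespan assays, the paper states that most flies with glial hTDP-43 that leave the pupal case are male. The 2 libraries of each genotype are independent preparations from populations of flies, and the transgene itself was not analysed here.

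Totals ran from 22476024 to 41150009 counts per library. The 92 genes together took 2.50% and 2.31% of the counts in Repo/TDP43 heads, 2.57% and 2.75% in Elav/TDP43 heads, and 2.41% and 2.54% in TDP43/2U heads. The Repo/TDP43 mean lay 0.0673 percentage points below the TDP43/2U mean, less than the distance between the libraries of either genotype. The Elav/TDP43 mean lay 0.184 points above it, and both Elav/TDP43 libraries were above both TDP43/2U libraries. With 2 libraries a genotype, an exact permutation test of a single value cannot pass 0.05, and none was run. S15 stood apart from the other 5 libraries in how the counts were spread over the ribosomal protein genes, as described further on. Several counts and medians of the comparisons with TDP43/2U are also given without it. Because whole heads were used, fewer cells of a type and less RNA per cell cannot be told apart in any of these values.

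Glial hTDP-43 went with small differences in most abundant ribosomal protein genes, few of which passed the test. In edgeR's quasi-likelihood test with TMM scaling, which centres the bulk of features on no change, 8 of 90 tested members passed an adjusted p of 0.05 between Repo/TDP43 and TDP43/2U heads. That is 8.89%, against 27.8% of all 13507 features tested. Of these, 3 were lower, all abundant (background 12.5%), and 5 were higher, all rarely read duplicates (background 15.3%). RpS28-like and RpS28a were removed by the filter on low counts. Of the 5 higher, RpL37b, RpS10a and RpS19b passed that filter only in fits with Repo/TDP43. Their adjusted p-values are therefore descriptions only. At an unadjusted p under 0.05 there were 29 members (32.2%), against 41.8% of all features.

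RpS15, a protein of the small subunit's head, had the lowest adjusted p among the abundant genes. It was read at 228 and 213 CPM in Repo/TDP43 heads, 291 and 331 CPM in Elav/TDP43 heads, and 303 and 343 CPM in TDP43/2U heads. Both Repo/TDP43 libraries lay below the other 4. The log2 fold change of Repo/TDP43 over TDP43/2U was -0.54 (SE 0.0999, adjusted p = 0.0132).

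RpL24, a large-subunit protein that reaches across to the small subunit, stood at 279 and 260.4 CPM in Repo/TDP43 heads, 342 and 389 CPM in Elav/TDP43 heads, and 327 and 359.9 CPM in TDP43/2U heads. On the log2 scale it was lower in Repo/TDP43, at -0.34 (SE 0.0937, adjusted p = 0.0411). RpL38, known in the mouse for the translation of a subset of Hox mRNAs, was read at 31.7 and 31.2 CPM in Repo/TDP43 heads, 33.8 and 35.2 CPM in Elav/TDP43 heads, and 38.5 and 40.9 CPM in TDP43/2U heads (log2 fold change -0.32, SE 0.0905, adjusted p = 0.0422). For both genes the 2 Repo/TDP43 libraries lay below the other 4.

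The calls changed when single libraries were left out and with scaling. Without S05 the log2 fold changes were -0.595 for RpS15, -0.395 for RpL24 and -0.342 for RpL38. Without S06 they were -0.494, -0.294 and -0.316 in the same order. Where a genotype kept 1 library, the spread came from the other genotype, so the counts that follow do not show whether the calls hold. With either Repo/TDP43 library left out, none of the members passed, while 3.96% of all features passed without S05 and 7.28% without S06. Without S14, 54 members were lower and 9 higher (45.7% of all features called), and without S15, 12 were lower and 5 higher (31.0%). RpS15 was lower with library size alone (log2 fold change -0.37, adjusted p = 0.0227), whereas RpL24 (-0.17, adjusted p = 0.16) and RpL38 (-0.15, adjusted p = 0.249) did not pass.

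The abundant genes lay mostly on one side. Of the 84, 69 had a negative and 15 a positive log2 fold change between Repo/TDP43 and TDP43/2U heads, with a median of -0.21 and a range of -1.49 to 0.28. The median over all tested features was 0.00, with quartiles of -0.27 and 0.52. For 54 of the 84 (64.3%) both Repo/TDP43 libraries lay below both TDP43/2U libraries, against 34.7% of all features. For 2 both lay above, against 34.3%. Without S15, 75 of the 84 were negative (median -0.12) and 70 lay below S14 in both Repo/TDP43 libraries (83.3%, against 43.7% of all features). Without S14, 65 were negative (median -0.31) and 61 lay below S15 (72.6%, against 42.1%).

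That count hung on the scaling. With library size alone only 4 of the 84 (4.76%) lay below without overlap, against 20% of all features, and 15 lay above, against 48.9%. A scaling factor shifts all features alike, so the distance between the members' median and the median of all features does not depend on it and says nothing of stability. For the 90 tested members this distance was -0.20 on the log2 scale (TMM), -0.12 without S15 and -0.30 without S14.

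**Figure D1:**
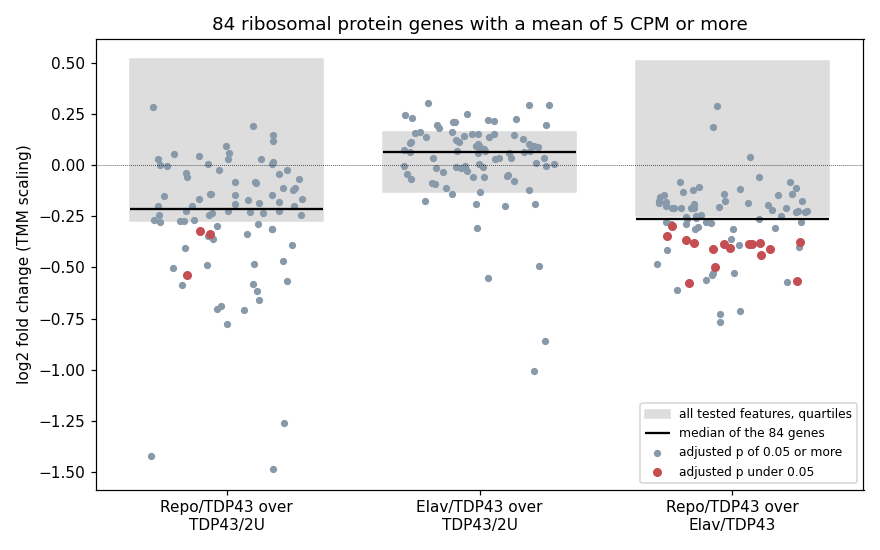
Log2 fold changes (y axis, TMM scaling) of the 84 ribosomal protein genes with at least 5 CPM in the 3 comparisons (x axis), 1 point per gene, red where the adjusted p was under 0.05. Grey boxes are the quartiles of all tested features and black lines the medians of the 84 genes, at -0.21, 0.06 and -0.26 from left to right.

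Genes of both subunits had negative medians. The 51 abundant large-subunit genes had a median log2 fold change of -0.23 between Repo/TDP43 and TDP43/2U heads, with 41 negative, and the 33 small-subunit genes a median of -0.19, with 28 negative. No difference between the subunits was tested. The stalk proteins did not pass: RpLP0 had a log2 fold change of -0.06 (SE 0.133), RpLP1 of -0.39 (SE 0.180) and RpLP2 of -0.15 (SE 0.0859). RpL40 and RpS27A, which are made as fusions with ubiquitin, differed from each other in size of change, at -0.50 (SE 0.179, adjusted p = 0.081) and 0.01 (SE 0.0825, adjusted p = 0.966), though that difference was not tested. The most negative values, those of RpL39 (-1.49), RpL36 (-1.42) and RpL29 (-1.26), belonged to genes with SEs of 0.471 to 0.569 and adjusted p-values of 0.0876 to 0.0986. These genes were singled out after their values were seen, and they differed most between S14 and S15.

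Neuronal hTDP-43 gave no call among these genes. None of the 87 members tested passed between Elav/TDP43 and TDP43/2U heads by edgeR or by DESeq2, against a background of 0.927% of 12942 features (0.487% higher and 0.44% lower). At an unadjusted p under 0.05 there were 2 (2.30%, against 8.72% of all features), RpL24-like and RpL22. RpL22 was read at 329 and 399 CPM in Elav/TDP43 heads and at 318 and 273 CPM in TDP43/2U heads, with 0.30 as the log2 fold change (SE 0.128, adjusted p = 0.563). RpL24-like, whose yeast counterpart is a ribosome assembly factor, was read at 63.8 and 76.7 CPM in Elav/TDP43 heads and at 57.8 and 56.7 CPM in TDP43/2U heads (log2 fold change 0.30, SE 0.115, adjusted p = 0.503).

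Of the 84 abundant genes, 52 had a positive and 32 a negative log2 fold change with Elav/TDP43, with a median of 0.06. For 13 (15.5%) both Elav/TDP43 libraries lay above both TDP43/2U libraries, against 18.8% of all features, and for 1 (1.19%) both lay below, against 18.3%. The median over all tested members was 0.10 without S11 and -0.01 without S12. It was 0.135 without S15 and -0.006 without S14, so it depended on the control library that was kept. Without S14, 5 members were higher and 12 lower (7.80% of all features called), and without S15, 5 were higher and 0 lower (2.85%). RpL37a and RpS28b were among the 5 higher without S15 and among the 12 lower without S14, so the control library that was kept set the sign of these 2 genes.

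The drivers were also set directly against each other. In the fit of all 6 libraries, 20 of 90 members passed between Repo/TDP43 and Elav/TDP43 heads (22.2%, against 24% of 13699 features). Of these, 16 were lower in Repo/TDP43 (17.8%, against 13.3%) and 4 higher (4.44%, against 10.7%). The 16 were all abundant, 9 of the large and 7 of the small subunit, and the 4 were all rarely read duplicates. In each of the 16 both Repo/TDP43 libraries lay below both Elav/TDP43 libraries. In 15 they also lay below both TDP43/2U libraries, the exception being RpL22.

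RpS10b, a small-subunit protein near the mRNA entry site, had the lowest adjusted p. It was read at 277 and 259.8 CPM in Repo/TDP43 heads and at 344 and 358 CPM in Elav/TDP43 heads, with TDP43/2U at 302 and 311 CPM (log2 fold change of Repo/TDP43 over Elav/TDP43 -0.39, SE 0.0716, adjusted p = 0.00789). The 3 genotypes did not overlap for this gene. RpS15Aa stood at 257 and 239.6 CPM in Repo/TDP43 heads and at 314 and 328 CPM in Elav/TDP43 heads, with TDP43/2U at 291 and 297 CPM (-0.37, SE 0.0717, adjusted p = 0.00925). In this comparison the values were -0.50 for RpS15 (SE 0.0961, adjusted p = 0.00948) and -0.44 for RpL24 (SE 0.0914, adjusted p = 0.0125). RpL38, lower in Repo/TDP43 than in TDP43/2U heads, did not pass against Elav/TDP43 (-0.13, SE 0.0822, adjusted p = 0.276).

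RpL32, also known as rp49 and widely used as the reference gene in fly quantitative PCR, was among the 16. Its levels were 227 and 190.3 CPM in Repo/TDP43 heads, against 326 and 293 CPM in Elav/TDP43 heads, and 249 and 307 CPM in TDP43/2U heads. Both Repo/TDP43 libraries were the lowest of the 6. The log2 fold change of Repo/TDP43 over Elav/TDP43 was -0.57 (SE 0.127, adjusted p = 0.0165), and that of Repo/TDP43 over TDP43/2U was -0.40 (SE 0.141, adjusted p = 0.077).

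RpL40 had the most negative value of the 16, at 171 and 140.4 CPM in Repo/TDP43 heads and 249 and 216 CPM in Elav/TDP43 heads (log2 fold change -0.58, SE 0.163, adjusted p = 0.0384). RpS6, the substrate of S6 kinase, was read at 530.0 and 518 CPM in Repo/TDP43 heads and at 619 and 712 CPM in Elav/TDP43 heads (-0.35, SE 0.0878, adjusted p = 0.0265). RpS18, RpL18, RpS14b, RpL9, RpL7A, RpL22, RpL14 and RpL27 had log2 fold changes between -0.41 and -0.30.

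**Figure D2:**
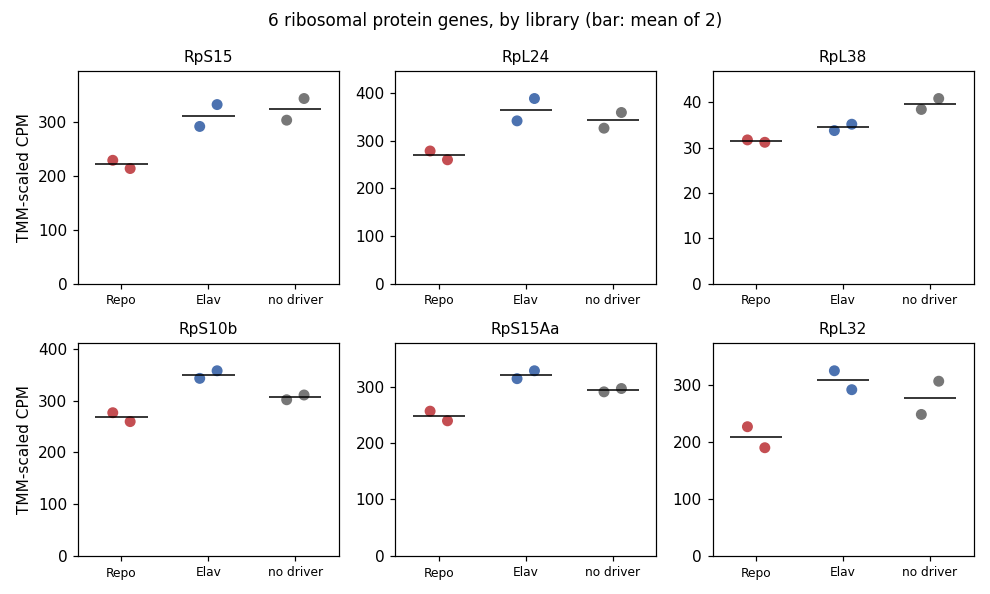
CPM after TMM scaling (y axis, from 0) of 6 ribosomal protein genes in the 2 libraries of each genotype (x axis: Repo/TDP43, Elav/TDP43, and no driver for TDP43/2U), with bars at the mean of 2. In all 6 genes both Repo/TDP43 points lie below the other 4.

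Of the 84 abundant genes, 81 had a negative log2 fold change of Repo/TDP43 over Elav/TDP43, and the median was -0.26, against 0.00 over all features. For 71 (84.5%) the Repo/TDP43 libraries lay below both Elav/TDP43 libraries, against 36% of all features. With library size alone this was 39 (46.4%), against 23.1%, and 4 of the abundant genes passed the test as lower (RpL24, RpL32, RpS10b and RpS15). In that setting 22.4% of all features were called in either direction. Without S05 only RpL32 passed (7.18% of all features called), and no member did without S06 (6.70%) or without S12 (8.31%). Without S11 there were 9 lower (12.7%), without S14 49 lower and 6 higher (33.9%), and without S15 46 lower and 6 higher (33.0%).

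Cell type markers also differed in the Repo/TDP43 heads. Of 5 neuron markers, 4 (nSyb, Syt1, brp and para) were lower in Repo/TDP43 than in TDP43/2U heads, and their summed level was 4754 and 4959 CPM in Repo/TDP43, 6398 and 6175 CPM in Elav/TDP43, and 6182 and 7318 CPM in TDP43/2U heads. With library size alone 1 of the 5 passed, without S05 or without S06 none did, and without S15 all 5 did, with the list's median at -0.29 in place of -0.47. Of 6 glia markers, 2 were higher (repo and moody) and 2 lower (nrv2 and Eaat1), with sums of 1584 and 1529 CPM in Repo/TDP43, 1980 and 2081 CPM in Elav/TDP43, and 1668 and 1970 CPM in TDP43/2U heads. Of 8 photoreceptor markers 2 were lower and none higher, with sums of 33170 and 33810 CPM in Repo/TDP43, 38650 and 38200 CPM in Elav/TDP43, and 36670 and 42840 CPM in TDP43/2U heads. No marker of these lists was at 0 in any library. Of 4 fat body markers tested 2 were lower, and of 4 hemocyte markers 2 were higher and 1 lower. The fat body list summed to 49.1 and 49.9 CPM in Repo/TDP43, 247 and 293 CPM in Elav/TDP43, and 489 and 508 CPM in TDP43/2U heads. Of this, Lsp2 held 13.0 and 15.6, 181 and 223, and 446 and 467 CPM in the same order. Yp3 was the other gene lower in Repo/TDP43 (-0.31), while Yp1 (0.24) and Yp2 (-0.03) did not pass. The hemocyte list summed to 553 and 624 CPM in Repo/TDP43, 348 and 324 CPM in Elav/TDP43, and 375 and 339.8 CPM in TDP43/2U heads. Of 4 muscle markers TpnC4 was higher and Act88F lower, and the list summed to 1460 and 1523 CPM in Repo/TDP43, 1899 and 1958 CPM in Elav/TDP43, and 2126 and 1670 CPM in TDP43/2U heads. With library size alone 1 photoreceptor, 1 glia, 1 fat body, 0 hemocyte and 0 muscle markers were lower. Without S05, 0 photoreceptor, 1 glia, 1 fat body, 0 hemocyte and 0 muscle markers were lower and no glia marker was higher. Between Elav/TDP43 and TDP43/2U heads, Lsp2 (-1.17, adjusted p = 0.00907) and Act88F (-1.45, adjusted p = 0.0461) were lower. Yp1 was higher there (2.02, adjusted p = 0.027). The markers' part in the levels of the ribosomal protein genes was not tested.

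The rarely read duplicates had values of the other sign. Among the 92, 27 rows share a number with at least 1 other row, in 13 numbers. The 8 duplicates under 5 CPM are RpL10Aa, RpL22-like, RpL37b, RpS5b, RpS10a, RpS19b, RpS28a and RpS28-like, each of which has an abundant partner. RpL22-like is known from the male germline, and RpS5b and RpS19b from germ cells. Their summed level was 8.12 and 7.59 CPM in Repo/TDP43 heads (268 and 182 counts), 2.21 and 1.72 CPM in Elav/TDP43 heads (78 and 45 counts), and 2.40 and 0.837 CPM in TDP43/2U heads (75 and 32 counts).

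RpS19b had 35 and 18 counts in Repo/TDP43 heads, 11 and 4 in Elav/TDP43 heads, and 6 and 5 in TDP43/2U heads. Its log2 fold change of Repo/TDP43 over TDP43/2U was 2.50 (SE 0.519, adjusted p = 0.0174). RpL22-like had 61 and 43 counts in Repo/TDP43 heads, 15 and 4 in Elav/TDP43 heads, and 17 and 5 in TDP43/2U heads (2.48, SE 0.607, adjusted p = 0.0284). RpS5b had 57 and 59 counts in Repo/TDP43 heads, 30 and 20 in Elav/TDP43 heads, and 22 and 10 in TDP43/2U heads (2.14, SE 0.520, adjusted p = 0.0277). In all 3 the Repo/TDP43 counts exceeded those of the other 4 libraries.

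RpS10a had 23 and 16 counts in Repo/TDP43 heads, 5 and 5 in Elav/TDP43 heads, and 8 and 4 in TDP43/2U heads (log2 fold change of Repo/TDP43 over TDP43/2U 1.95, SE 0.575, adjusted p = 0.049). RpL10Aa had 60 and 25 counts in Repo/TDP43 heads, 11 and 6 in Elav/TDP43 heads, and 21 and 7 in TDP43/2U heads, and did not pass (1.80, SE 0.642, adjusted p = 0.0821). The 2 Repo/TDP43 libraries of RpL10Aa were further apart, at 1.82 and 1.04 CPM, than those of RpS10a.

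RpL37b had 19 and 14 counts in Repo/TDP43 heads, 3 and 4 in Elav/TDP43 heads, and 1 and 0 in TDP43/2U heads. It passed against TDP43/2U (adjusted p = 0.0118), but with 1 control count its fold is loosely set. The ratio of summed levels in Repo/TDP43 over TDP43/2U was 40.2 (exact 95% interval 6.74 to 1640, counting error only). RpS28-like, removed by the filter, had 11 and 7 counts in Repo/TDP43 heads, 3 and 2 in Elav/TDP43 heads, and 0 and 1 in TDP43/2U heads, a ratio of 21.9 (3.47 to 914). RpS28a had 2 and 0 counts in Repo/TDP43 heads and 0 in the other 4 libraries, too few for a fold.

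**Figure D3:**
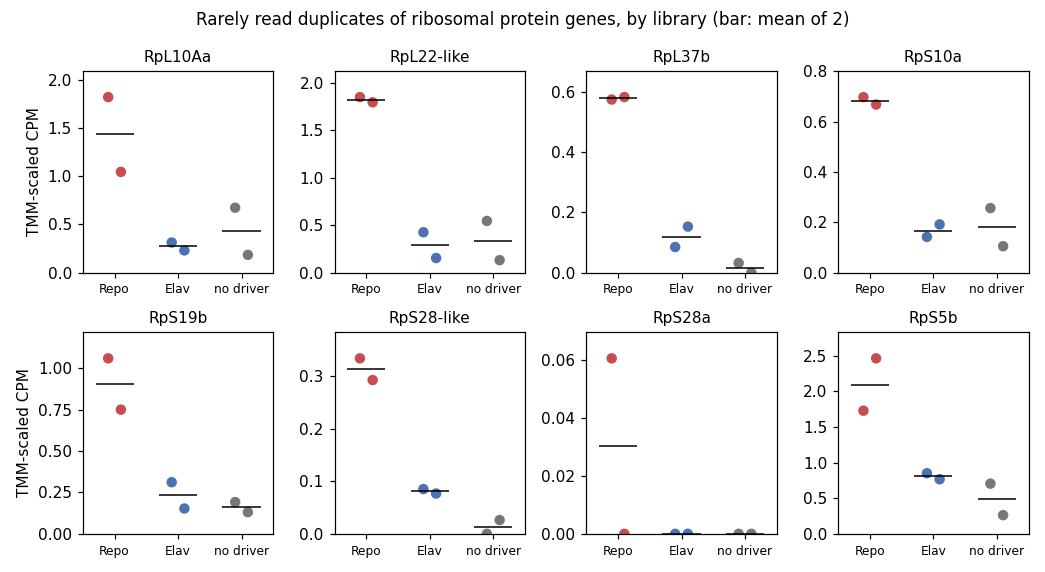
CPM after TMM scaling (y axes, from 0, scaled per panel) of the 8 rarely read duplicates in the 2 libraries of each genotype (x axis: Repo/TDP43, Elav/TDP43, and no driver for TDP43/2U), with bars at the mean of 2. In 7 of the 8 panels both Repo/TDP43 points lie above all others, and in RpS28a only 1 library has any count besides 0.

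RpL37b, RpS10a and RpS19b passed the filter on low counts in the fits with Repo/TDP43 and not in the fit of Elav/TDP43 with TDP43/2U. They thus entered through the genotype in which they were higher. The adjusted p-values of these 3 genes and the count of called duplicates are descriptions only. Directly against Elav/TDP43, 4 duplicates were higher in Repo/TDP43 heads: RpL22-like (log2 fold change 2.59, adjusted p = 0.0298), RpL10Aa (2.38, adjusted p = 0.0373), RpS10a (2.03, adjusted p = 0.0473) and RpS19b (1.92, adjusted p = 0.0414). None passed without S05, without S06, without S11 or without S12. With at least 10 counts required in every library, RpS5b alone stayed in as higher in Repo/TDP43 than in TDP43/2U heads. Between Elav/TDP43 and TDP43/2U heads, RpS5b (0.76, SE 0.596), RpL22-like (-0.14, SE 0.870) and RpL10Aa (-0.61, SE 0.775) were tested and did not pass.

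Some markers of testis were also higher in Repo/TDP43 heads. Of 8 testis genes 7 were tested, and 5 of them (Mst84Da, Mst84Db, Mst87F, Mst98Ca and dj) were higher in Repo/TDP43 than in TDP43/2U heads, none in Elav/TDP43. Without S05 none of them was higher in Repo/TDP43, and without S14 2 were higher in Elav/TDP43. Their list summed to 61.1 and 35.5 CPM in Repo/TDP43 heads, 26.5 and 13.9 CPM in Elav/TDP43 heads, and 16.4 and 8.27 CPM in TDP43/2U heads. The testis genes can (0.31, adjusted p = 0.612) and bam (1.40, adjusted p = 0.379) did not pass between Repo/TDP43 and TDP43/2U. The regulator bam was at 0 in S11 and S15, and aly was removed by the filter on low counts. Of 4 accessory gland genes 3 were higher, with sums of 92.3 and 86.0 CPM in Repo/TDP43, 79.8 and 40.8 CPM in Elav/TDP43, and 32.6 and 15.3 CPM in TDP43/2U heads. Without S05 this was 1 and without S06 2, and without S14 3 of the 4 were higher in Elav/TDP43 than in TDP43/2U heads. Of 5 gut genes 2 were higher. The gut list summed to 32.1 and 60.7 CPM in Repo/TDP43, 19.5 and 5.36 CPM in Elav/TDP43, and 15.5 and 5.97 CPM in TDP43/2U heads. Its median log2 fold change of Repo/TDP43 over TDP43/2U was 1.85, and 1.78 without S06. Of 7 ovary genes 3 were tested and none passed, and Cp36, an eggshell gene, was at 0 in both Repo/TDP43 libraries and in S12. The part of other tissues, or of the sex of the flies, in the duplicates' levels was not tested.

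The abundant partners of these duplicates did not pass between Repo/TDP43 and TDP43/2U heads. Their log2 fold changes were 0.12 for RpL10Ab (SE 0.153), -0.06 for RpL22 (SE 0.0929), -0.59 for RpL37a (SE 0.284), 0.05 for RpS5a (SE 0.0807), -0.18 for RpS10b (SE 0.0826), -0.17 for RpS19a (SE 0.106) and -0.66 for RpS28b (SE 0.250). In the other pairs both copies were abundant. RpL34a had a log2 fold change of -0.02 (SE 0.0912) and RpL34b of -0.11 (SE 0.0777). RpS15Aa had -0.23 (SE 0.0822) and RpS15Ab 0.19 (SE 0.127), and no difference within a pair was tested.

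RpS14a and RpS14b are neighbouring near-identical copies, so how reads were divided between them is uncertain. Their log2 fold changes between Repo/TDP43 and TDP43/2U were -0.12 (SE 0.0937) and -0.14 (SE 0.0949). Summed, they reached 264.5 and 236 CPM in Repo/TDP43 heads, 275 and 336 CPM in Elav/TDP43 heads, and 289 and 263 CPM in TDP43/2U heads, and the Repo/TDP43 and TDP43/2U ranges overlapped. RpLP0-like, RpL7-like and RpL24-like carry ribosomal protein names, while their yeast counterparts act in ribosome assembly. RpLP0-like was read at 8.76 and 9.93 CPM in Repo/TDP43 heads, 6.63 and 8.68 CPM in Elav/TDP43 heads, and 7.46 and 7.98 CPM in TDP43/2U heads. It had the highest log2 fold change of the 84 abundant genes in Repo/TDP43 over TDP43/2U, 0.28 (SE 0.156, adjusted p = 0.22), without passing. RpL7-like had -0.16 (SE 0.193) and RpL24-like 0.10 (SE 0.098). The partner genes RpL7 (-0.04, SE 0.0921) and RpLP0 did not pass.

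The libraries of the same genotype differed in a pattern shared by many of these genes. In S15 the levels of RpL39, RpL36, RpL29 and RpL36A, which encode small ribosomal proteins, were at least 2-fold those in S14. RpL39 was read at 47.9 and 36.8 CPM in S05 and S06, at 72.4 and 45.9 CPM in S11 and S12, and at 48.7 and 189 CPM in S14 and S15. RpL36 was read at 146 and 117 CPM in S05 and S06, at 222 and 166 CPM in S11 and S12, and at 158 and 547 CPM in S14 and S15. S15 alone stood apart for both.

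A ratio of S15 over S14 of at least 1 on the log2 scale, in either direction, occurred in 4 of the 84 abundant members (4.76%) and in 20 of 3316 other features with at least 50 CPM (0.603%). RpL10Ab (-0.50), RpS2 (-0.44) and RpLP0 (-0.40) were lower in S15 than in S14. The standard deviation of this log2 ratio was 0.449 over the 84 genes and 0.245 over the other features. For S11 over S12 it was 0.227 and 0.127, and for S05 over S06 0.110 and 0.0990.

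The same genes stood high or low in S15, S11 and S05 against the other library of their genotype. Across the 84 genes the log2 ratio of S15 over S14 had a Pearson correlation of 0.847 (Spearman 0.785) with that of S11 over S12, and 0.738 (0.685) with that of S05 over S06. The correlation between S11 over S12 and S05 over S06 was 0.805 (0.679). These are descriptions across genes, which are not independent replicates. No library is shared between the ratios. The members within each ratio share their libraries. Leaving out S15 changed the log2 fold change of RpS15 in Repo/TDP43 over TDP43/2U to -0.44 and that of RpL24 to -0.26. S14 was then the only control library and the spread came from the Repo/TDP43 pair, so this does not show whether the calls hold.

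**Figure D4:**
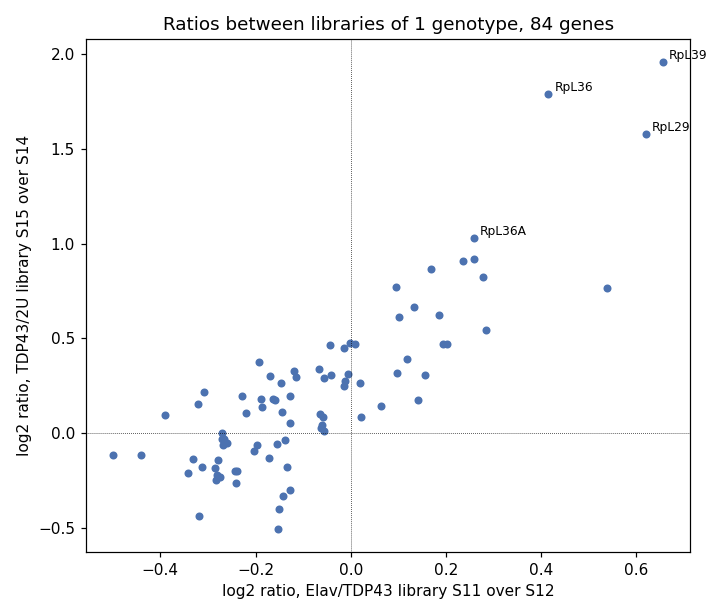
Log2 ratio of S15 over S14 (y axis, both TDP43/2U) against log2 ratio of S11 over S12 (x axis, both Elav/TDP43) for the 84 abundant ribosomal protein genes, 1 point per gene. The points run along a rising band (Pearson correlation 0.847), and the 4 named genes lie above 1 on the y axis.

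Other genes of the translation machinery were described through lists. Of 20 ribosome assembly genes, 9 were higher and none lower in Repo/TDP43 than in TDP43/2U heads, with a median log2 fold change of 0.35, opposite in sign to the median of the ribosomal protein genes. Fib, the methyltransferase of ribosomal RNA, had 0.78 (SE 0.194, adjusted p = 0.029), and its partner Nop56 had 0.58 (SE 0.135, adjusted p = 0.0248). nop5 had 0.60 (SE 0.133, adjusted p = 0.0205). RpI135 (0.62, SE 0.142, adjusted p = 0.0237) and RpI1 (0.60, SE 0.106, adjusted p = 0.0113) encode the large subunits of RNA polymerase I, which makes ribosomal RNA. The list summed to 730.1 and 722 CPM in Repo/TDP43 heads, 657 and 714 CPM in Elav/TDP43 heads, and 619 and 555 CPM in TDP43/2U heads. RpI135 and RpI1 were also higher than in Elav/TDP43 heads (0.56, adjusted p = 0.0264, and 0.48, adjusted p = 0.015). None of the 20 passed between Repo/TDP43 and TDP43/2U without S05 or without S06, and 11 did with library size alone.

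Of 5 ribosome-associated genes outside the naming rule, Tctp (-0.34, SE 0.0825, adjusted p = 0.0272) and Nacalpha (-0.32, SE 0.0911, adjusted p = 0.044), a part of the complex that binds nascent chains, were lower in Repo/TDP43 than in TDP43/2U heads. With library size alone, without S05 or without S06 none of the 5 was lower, without S15 3 were and without S14 all 5. Against Elav/TDP43, 4 of the 5 were lower: Tctp (-0.47), Nacalpha (-0.53), sta (-0.39) and Rack1 (-0.38). The last 2 encode proteins of the small subunit. With library size alone 2 of the 5 were lower than in Elav/TDP43 heads, and without S06 none. Of 6 elongation genes 1 passed against TDP43/2U, Ef1alpha100E, a form of elongation factor 1 alpha, at 693 and 709 CPM in Repo/TDP43 heads, against 968 and 1086 CPM in TDP43/2U heads (-0.54, adjusted p = 0.0126). Of 19 initiation genes 1 passed, eIF-4B (-0.39, adjusted p = 0.0172), and 6 were lower than in Elav/TDP43 heads. No elongation or initiation gene passed against TDP43/2U without S05 or without S06. No initiation gene was lower than in Elav/TDP43 or TDP43/2U heads with library size alone.

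Of 16 genes of growth signalling to ribosomes, Myc (0.56, SE 0.0768, adjusted p = 0.00607), a transcription factor that drives ribosome production, and S6k (0.36, SE 0.0951, adjusted p = 0.0365), the kinase of RpS6, were higher in Repo/TDP43 than in TDP43/2U heads. Mnt, an antagonist of Myc, was lower (-0.52, SE 0.154, adjusted p = 0.0488). None of the 16 passed without S05 or without S06, and none was lower with library size alone. Among the genes of the response to Minute mutations, puc was higher than in TDP43/2U heads (0.63, adjusted p = 0.0098), and Xrp1 had 0.11 (adjusted p = 0.595). Against Elav/TDP43 heads both were higher, puc at 0.57 (adjusted p = 0.00365) and Xrp1 at 0.41 (adjusted p = 0.0394). The call of puc against TDP43/2U needed both Repo/TDP43 libraries. Between Elav/TDP43 and TDP43/2U heads no gene of these lists passed by edgeR with all 4 libraries. By DESeq2, 1 ribosome assembly gene was higher (2.49% of all features called). Without S14, which left a single control library, the medians of the lists ran from -0.27 (Minute response) to 0.19 (ribosome assembly).

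The 73 mitochondrial ribosomal protein genes, which build a separate ribosome, had a median log2 fold change of -0.32 between Repo/TDP43 and TDP43/2U heads, with 65 negative. Of these, mRpL12, mRpS24 and mRpS9 were lower and none higher. None was lower with library size alone (median -0.14), without S05 or without S06, while 28 were lower without S14 (median -0.46) and 6 without S15 (median -0.20). Between Elav/TDP43 and TDP43/2U the median was -0.05 with no call, and between Repo/TDP43 and Elav/TDP43 it was -0.30 with mRpS9 lower. The mitochondrial set thus had a median of the same sign as the cytosolic genes in both comparisons with Repo/TDP43.

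Small RNA libraries gave a second reading of the same genes. These held 18 to 29 base fragments from Repo/TDP43 heads (S22, S23 and S24) and from heads of Repo/2U flies (S19, S20 and S21), which carried the driver without the transgene. The exons of the 92 genes took 889, 267 and 218 CPM in Repo/TDP43 libraries, against 300.1, 226 and 323 in Repo/2U libraries. S22 alone lay above the rest, and the other 5 overlapped.

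Of 183 exon rows of these genes tested, none passed by edgeR or DESeq2 (background 5.89% of 28127 rows), and 4 had an unadjusted p under 0.05 by edgeR. The median log2 fold change of these rows was 0.66 with all libraries and -0.23 without S22, so S22 set its sign. Of 82 genes with at least 100 counts, S22 was the highest library in 81. Its level was 1.24 to 4.82 times the median of the other 5 libraries, with a median of 3.24. Exon rows of all other genes also stood highest in S22, at 65680 CPM, against 47670 and 43360 in the other Repo/TDP43 libraries and 35830 to 48760 in Repo/2U libraries. The share of miRNA was lowest in S22, at 76.2%, with 82.0% and 82.6% in the other Repo/TDP43 libraries and 79.4% to 85.2% in Repo/2U libraries. The part of RNA breakdown in these fragments was not tested, and the exon rows give no strand.

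**Figure D5:**
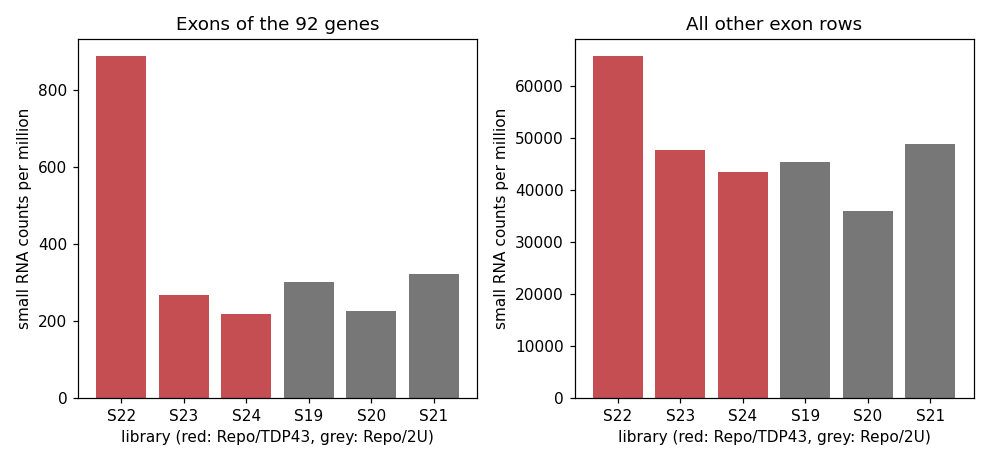
Small RNA CPM (y axes, from 0) on exons of the 92 ribosomal protein genes (left) and on all other exon rows (right) in 3 Repo/TDP43 libraries (red) and 3 Repo/2U libraries (grey). S22 is the highest bar in both panels, at 889 and 65680, while the other 5 bars of the left panel lie between 218 and 323.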

How the data were processed

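RNA-seq of fly heads covered 6 libraries (3 genotypes of 2) and small RNA-seq 6 libraries (2 genotypes of 3), grouped by their labels. The authors removed ribosomal RNA reads, mapped the rest to dm3 with STAR (up to 4 mismatches and 100 alignments), and deposited whole-number counts per RefSeq gene and FlyBase transposon from TEtranscripts, without normalization. Strand use and the sharing of multiply aligned reads are not given in the sources used here. The deposited small RNA counts were used as they stand, with 1 transcript per gene.

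R 4.3.3 with edgeR 4.0.16 (TMM, filterByExpr, quasi-likelihood test, Benjamini-Hochberg over all features at 0.05) was used, and DESeq2 1.42.0 as an alternative. Each driver was compared with TDP43/2U in a fit of 4 libraries and the drivers in a fit of 6. CPM values use TMM factors of the 6 libraries. For small RNA, library sizes were column totals. The tests of each driver against TDP43/2U were checked on simulated counts. Reads carry no molecular identifiers, so intervals cover counting error only.

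Members and lists were chosen with earlier results of these data known. Genes named are members passing with a mean of at least 1 CPM (up to 12 per direction and comparison), all duplicated members, and list genes passing (up to 4 per direction). The rule's part on levels per coding length could not be applied, since no transcript lengths were used, so levels are not compared between genes. Of the 92 symbols, 92 matched an annotation of a later build, used for names and neighbours only. Other settings were library size alone, upper-quartile scaling, TMM without the members, DESeq2, other filters, an adjusted p of 0.01, all 6 libraries in 1 fit, and each library left out. No sequences are printed. Values of a few single genes are not reported here.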

Additional observations from a re-analysis of the deposited data

Results flagged for a closer look

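Of the 90 ribosomal protein genes tested, 20 differed between Repo/TDP43 and Elav/TDP43 heads in a direct test of the 2 drivers of hTDP-43. That is 22.2%, against 24% of all features tested, so these genes were not called more often than features in general. Of the 20, 16 were lower and 4 higher in Repo/TDP43. Among the 4, RpS10a and RpS19b passed the filter on low counts only in fits with Repo/TDP43. Since both drivers share the TDP43/2U heads as their control, this test is also the test of the difference between their effects. Groups of 2 and 3 libraries are too small to test a single library as an outlier.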

How the results depend on the processing

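No paired analysis was possible because the library names are not shared between genotypes. For Repo/TDP43 against TDP43/2U (5 members higher, 3 lower, median log2 fold change -0.19), library size alone gave 1 lower and a median of -0.025, upper-quartile scaling 1 lower and -0.069, DESeq2 11 lower, all 6 libraries in 1 fit 12 lower, at least 10 counts in every library 1 higher and 1 lower, and an adjusted p under 0.01 gave 0 higher and 0 lower. Of all features, 25.9%, 26.7%, 27.5%, 31.9% and 26.4% were called in these settings, in the order given, the stricter adjusted p apart. Where a genotype was left with 1 library, that library was assumed to vary like the other groups. Leaving out each library gave 0 to 9 higher and 0 to 54 lower. For Elav/TDP43 against TDP43/2U (0 and 0), leaving out each library gave 0 to 5 higher and 0 to 12 lower, with values from -0.44 to 0.48 for RpL37a and from -0.39 to 0.38 for RpS28b, the highest of each without S15. For Repo/TDP43 against Elav/TDP43 (4 higher, 16 lower, median -0.25), library size alone gave 4 lower and -0.11, upper-quartile scaling 5 lower and -0.12, DESeq2 2 higher, at least 10 counts 0 higher and 9 lower, and an adjusted p under 0.01 gave 0 higher and 3 lower. The shares of all features called were 22.4%, 22.4%, 24.7% and 23.8% in that order, the stricter adjusted p apart. Leaving out each library gave 0 to 6 higher, 0 to 49 lower and medians of -0.30 to -0.15. Without the 8 rarely read duplicates, a set chosen after seeing the data, 0 members were higher in either comparison with Repo/TDP43. Small RNA exon rows (0 called) gave 0 to 3 calls among 183 to 202 rows when a library was left out. Over all small RNA rows, the fewest calls came without S19 (789 of 31272) and the most without S22 (2787 of 28877). Shifts with scaling follow from the factors themselves, and the cause of the others was not tested. With 2 libraries a genotype, adjusted p-values near 0.05 are easily moved, and low counts limit the duplicates.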
